A study of Mus musculus with 6 samples.

Results

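The 10 genes described here (H19, Igf2, Kcnq1ot1, Peg3, Snrpn, Mest, Meg3, Plagl1, Peg10 and Nnat) are imprinted genes, chosen by name from the mouse genome and not for any measured value. Earlier results of these data were known when the genes were chosen. The protein-coding genes among them belong to 22367 annotated in the genome, while H19, Kcnq1ot1 and Meg3 make long noncoding RNAs. Around them lay 15 of the 51867 peaks of accessible DNA called in 3 cell lines by ATAC-seq, an assay in which a transposase cuts open chromatin. The lines were Pax6-HIGH (β-TC3, labelled Beta-TC3, a mouse insulinoma line), Pax6-ON (MV+, a lens epithelial line) and Pax6-OFF (RAG, a renal adenocarcinoma line), which carry different activity states of the eye and pancreas regulator Pax6. All were untreated, immortalized lines in the same medium, and each is 1 line standing for its tissue. Each group held 2 libraries, which the authors pooled in 1 call per line, so no value below has a replicate error and no difference between lines could be tested. Nuclei of MV+ cells were prepared with 0.2% NP40 and those of the other lines with 0.1%, so this detergent step and the MV+ line cannot be told apart.

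Imprinted genes are expressed mainly or only from the maternal or the paternal copy, for some of them only in certain tissues. They lie in clusters whose control regions carry DNA methylation laid down in the egg or the sperm, and the methylated copy is usually closed while the other is open. ZFP57 binds a short methylated motif in many of these regions and protects their methylation, CTCF binds the unmethylated control region between H19 and Igf2, and YY1 binds a run of sites in the Peg3 control region. The fragments were not assigned to a parental copy, so a peak may come from either copy or from both.

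The sequences below belong to the peaks on which the results turn and are given in the NCBIM37 (mm9) assembly, 5′ to 3′ along the strand of the gene. The start of Kcnq1ot1, a long RNA read from the minus strand inside Kcnq1, was placed at chr7:150482452 by an exact match of its RefSeq promoter sequence (GRCm38.p6 table). The 250 bases before this start (chr7:150482453-150482702) hold the whole of the peak that Pax6-ON cells had there and the summit of a longer one in Pax6-HIGH cells, and capitals mark the CCAAT box, a promoter element bound by NF-Y. The CCAAT box was chosen for the search after the sequence had been seen.
Kcnq1ot1 upstream: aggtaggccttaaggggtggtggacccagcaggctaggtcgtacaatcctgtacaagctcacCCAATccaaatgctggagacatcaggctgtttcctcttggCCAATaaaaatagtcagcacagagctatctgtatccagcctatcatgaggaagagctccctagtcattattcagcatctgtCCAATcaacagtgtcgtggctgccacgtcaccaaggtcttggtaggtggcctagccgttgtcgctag
It had 3 matches to CCAAT, all on the strand of the gene, with their first base 188, 148 and 67 bp before the start. Of 69965 upstream windows of protein-coding starts with the same length of 250 bases, 31.8% had at least 1 match on either strand and 2.46% had 3 or more.

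The intron peak of Peg3, found in Pax6-HIGH and Pax6-ON cells, held 6 matches to the YY1 core AANATGGCG, searched on both strands as were all motifs. Read along Peg3, each is CGCCATCTT (capitals), and all 6 had the same orientation. They are shown in order from the 5′ end of the gene with 8 bases on either side, and run from chr7:6681607 down to chr7:6680548 on the minus strand.
Peg3 site 1: catcctggCGCCATCTTtcctggcc
Peg3 site 2: taccctgaCGCCATCTTtgctggct
Peg3 site 3: caatttggCGCCATCTTtgccagca
Peg3 site 4: ggtgcagaCGCCATCTTgaatgaca
Peg3 site 5: ccacctgaCGCCATCTTtgctgacg
Peg3 site 6: cacctgggCGCCATCTTtacttgtc
Matches to the same core occurred in 4.17%, 3.21% and 6.44% of 301-base windows around all summits of Pax6-HIGH, Pax6-ON and Pax6-OFF cells. As many as 6 matches in 1 peak were found in 72 of 27835 Pax6-HIGH peaks (0.259%) and in 24 of 9657 Pax6-ON peaks (0.249%) on assembled chromosomes. Of these, 46 and 19 were at least as long as the Peg3 peak, and among all peaks of that length or more the shares were 6.55% of 702 for Pax6-HIGH and 15.1% of 126 for Pax6-ON.

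The start-site peak of Snrpn, found in Pax6-HIGH cells, held 8 matches to the ZFP57 hexamer TGCCGC. Capitals mark the hexamer, and the 8 sites run from chr7:67149766 down to chr7:67149057 on the minus strand in the order in which Snrpn is transcribed. Site 1 lies on the opposite strand and reads GCGGCA, while sites 2 to 8 lie on the strand of the gene inside a repeated sequence of similar letters.
Snrpn site 1: gtgttagtGCGGCAcctgcgtg
Snrpn site 2: agctgtgtTGCCGCagcgtggg
Snrpn site 3: agctgtgtTGCCGCgacttgta
Snrpn site 4: agttctgtTGCCGCtgcaggaa
Snrpn site 5: agctctgtTGCCGCagcctgtg
Snrpn site 6: aactctgcTGCCGCagtgtcgc
Snrpn site 7: agctctgtTGCCGCagcagcct
Snrpn site 8: agtgctgtTGCCGCggcctgcg
Neighbouring sites lay 63 to 179 bp apart. Of all 27835 Pax6-HIGH peaks on assembled chromosomes, 3 had 8 or more matches (0.0108%), and of the 1197 at least as long as the Snrpn peak, the Snrpn peak was the only such peak. The hexamer was present in 12.6%, 14.3% and 17% of the 301-base summit windows of Pax6-HIGH, Pax6-ON and Pax6-OFF cells. A repeated sequence raises the number of matches, and no match says that a factor was bound.

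The start-site peak of Plagl1 in Pax6-HIGH cells held 5 ZFP57 hexamers in 755 bp, as many as 64 of the 27835 Pax6-HIGH peaks (0.23%) held or exceeded. Among the 7723 peaks at least as long, 55 did so (0.712%). One of the 5 hexamers lies in the part of the peak before the first annotated start (chr10:12810271-12810496, plus strand) and is shown in capitals.
Plagl1 upstream: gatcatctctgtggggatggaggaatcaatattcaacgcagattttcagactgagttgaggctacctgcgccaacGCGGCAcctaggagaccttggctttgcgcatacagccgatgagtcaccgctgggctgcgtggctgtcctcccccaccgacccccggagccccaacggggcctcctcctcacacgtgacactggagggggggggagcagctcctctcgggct
In the plot of motif positions, the YY1 cores of Peg3 spread over 1035 bp on both sides of the summits, and the ZFP57 hexamers of Snrpn spread over 688 bp.

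**Figure D1:**
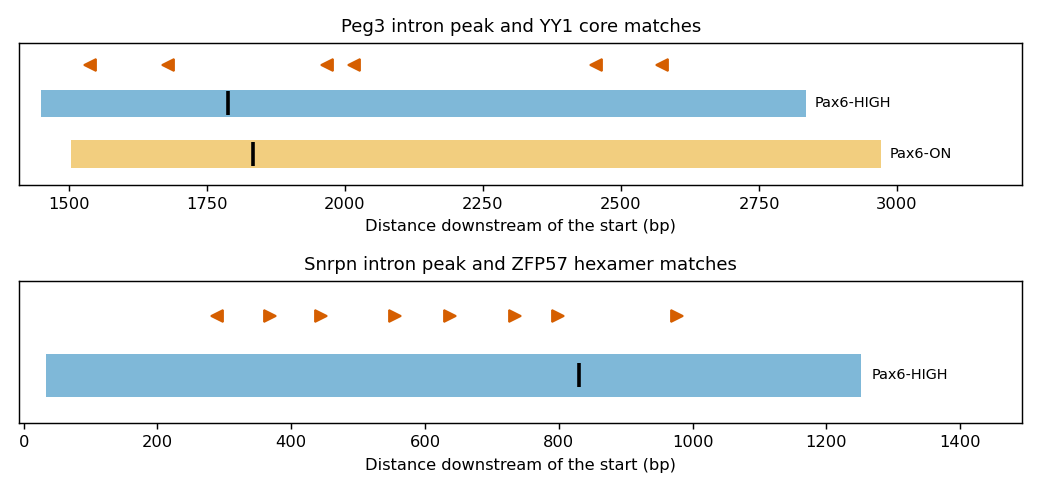
Position of motif matches (arrowheads, pointing along their strand relative to the gene) and of peaks (bars, with the summit as a black tick) in bp downstream of the start, for the Peg3 intron peak of Pax6-HIGH and Pax6-ON cells and the Snrpn peak of Pax6-HIGH cells. The 6 YY1 cores of Peg3 all point against the gene, and 7 of the 8 ZFP57 hexamers of Snrpn point along it.

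Start-site peaks, those overlapping the 1 kb on either side of any annotated start, were found at 4 of the 10 genes in Pax6-HIGH cells (Kcnq1ot1, Snrpn, Plagl1 and Peg10), at Kcnq1ot1 alone (1 of 10) in the Pax6-ON line, and at 0 in the Pax6-OFF line. The same was true of 46.4%, 21.4% and 36.1% of protein-coding genes in the same lines. It was true of 75.5%, 35.3% and 61% of the 12053 protein-coding genes with a CpG-rich start (GC content of at least 50% and a ratio of observed to expected CpG of at least 0.6 in 501 bases), and of 25.3%, 11.3% and 17.4% of 3845 long noncoding genes. The 4 genes of Pax6-HIGH cells were thus near the share over all protein-coding genes, and the 0 of Pax6-OFF cells was the count farthest below it. All of the 10 except Peg3 and Snrpn had a CpG-rich start. Among those with one, only Kcnq1ot1, Plagl1 and Peg10 had a start-site peak in Pax6-HIGH cells, a share below the 75.5%. Counting any peak in the gene body or the 10 kb on either side, 6, 2 and 2 of the 10 genes had one, against 61.6%, 30.6% and 48.9% of protein-coding genes. The other 4 (H19, Igf2, Mest and Meg3) had no peak in any line, and no further peak lay between 10 and 20 kb from any of the 10 genes.

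**Figure D2:**
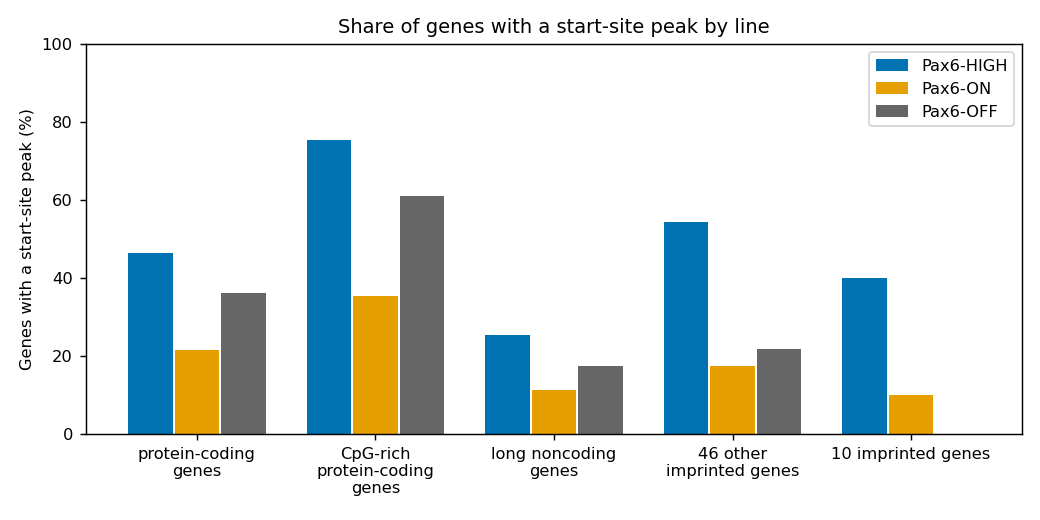
Share of genes (%) with a peak within 1 kb of a start, by line, for protein-coding genes, those with a CpG-rich start, long noncoding genes, 46 other imprinted genes and the 10 imprinted genes. The 10 genes stood at 4, 1 and 0 of 10, and each bar is a single value with no replicate error.

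The number of peaks differed between lines, with 28024 for Pax6-HIGH, 9821 for Pax6-ON and 14022 for Pax6-OFF, from 100254099, 130955836 and 102223606 fragments. When each line kept only its 9821 peaks of smallest q-value, Plagl1 alone of the 10 genes kept a start-site peak in Pax6-HIGH cells, Kcnq1ot1 kept its peak in Pax6-ON cells, and Pax6-OFF cells still had 0. On this footing 28%, 21.4% and 30.7% of protein-coding genes had a start-site peak. The higher count in Pax6-HIGH cells thus rested on peaks outside its most significant ones.

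The peaks around the 10 genes fell into 12 sites, of which 9 were called in 1 line (7 for Pax6-HIGH, 0 for Pax6-ON, 2 for Pax6-OFF), 3 in 2 lines and 0 in all 3. Over all 35925 sites of the genome, merged in the same way, 68.9% were called in 1 line (49.5% for Pax6-HIGH, 9.04% for Pax6-ON, 10.5% for Pax6-OFF), 18.4% in 2 and 12.6% in all 3. With 12 sites, these counts were near those shares. Pax6-HIGH cells had 10 of the 15 peaks, 4 at starts and 6 elsewhere. Pax6-ON cells had 2 and Pax6-OFF cells had 3.

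**Figure D3:**
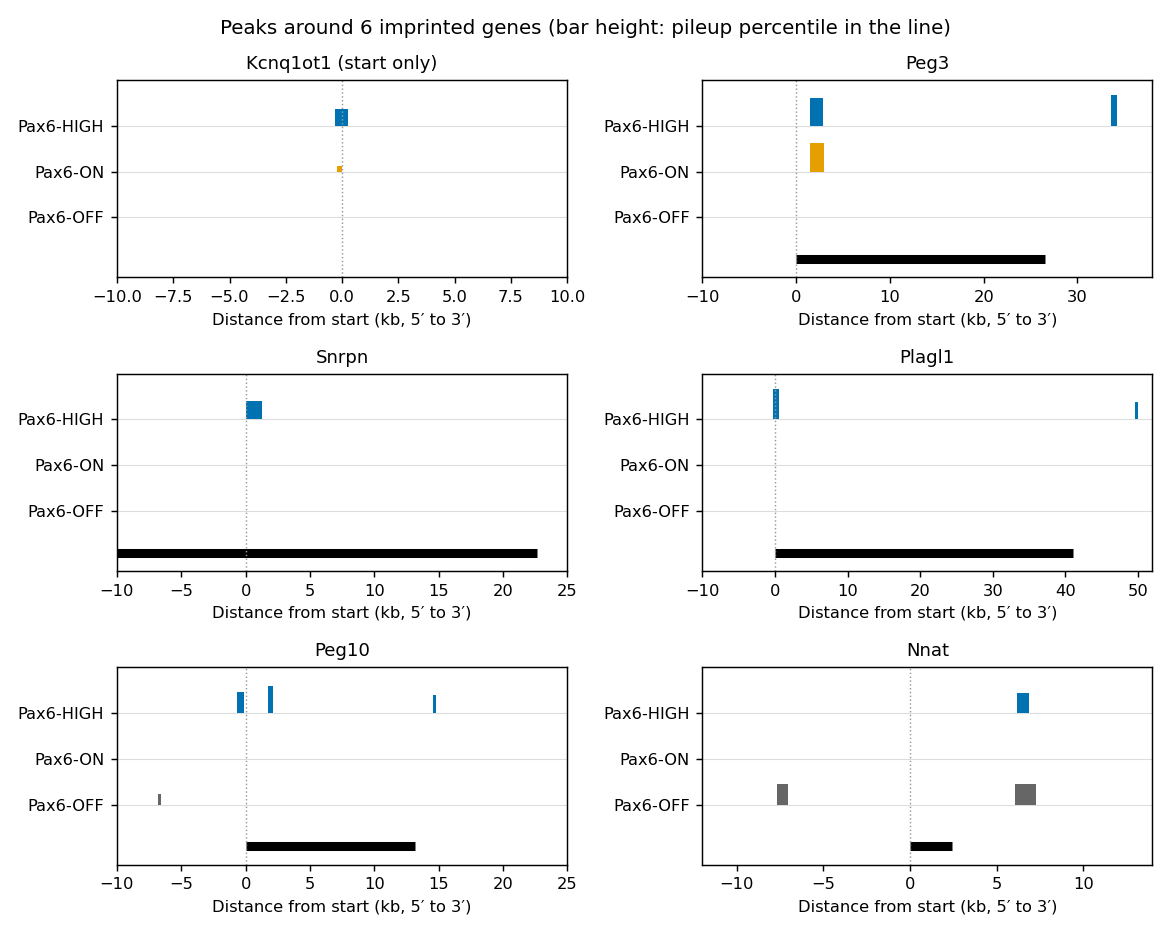
Peaks around the 6 imprinted genes that had any, by line, against the distance from the start in kb (5′ to 3′, black bar for the annotated gene). The height of each bar is the pileup percentile among all peaks of that line, from 16.2 for Kcnq1ot1 in Pax6-ON to 84.4 for the peak downstream of Peg3 in Pax6-HIGH cells, and no position has a bar in all 3 lines, as 12.6% of all sites of the genome did.

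Kcnq1ot1, a paternally expressed noncoding RNA that silences neighbouring genes of its cluster and starts in the control region within Kcnq1, was the only gene of the 10 with a start-site peak in more than 1 line. In Pax6-HIGH cells the peak (chr7:150482170-150482779) had a pileup of 51 fragments at its summit, 4.07 times the local background. In Pax6-ON cells a narrower peak (chr7:150482463-150482683, 221 bp) had 43 fragments and 2.90 times the background. The smaller peak lay wholly inside the larger, and the summits fell 125 and 126 bp before the start, between the CCAAT boxes that begin at 148 and 67 bp. The peak ranked at the 46.2 percentile of pileup among Pax6-HIGH peaks and at the 16.2 percentile among Pax6-ON peaks, so in neither line was it a strong one. It had 0 matches to the CTCF, ZFP57 or YY1 letters searched. In Pax6-OFF cells the nearest peak was 227061 bp away, at the start of Tssc4, and 479164 bp around the Kcnq1ot1 start were free of peaks. Only the start and 10 kb on either side were searched for Kcnq1ot1, because the annotation used has no model of it.

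Peg3 (chr7:6656603-6683132, minus strand), a paternally expressed zinc-finger gene whose control region covers its first exon and intron, had no start-site peak but had an intron peak in 2 lines. In Pax6-HIGH cells the peak (chr7:6680295-6681680) was 1386 bp long, with 88 fragments at the summit, 3.05 times the background. The Pax6-ON peak was 1467 bp long (chr7:6680159-6681625), with 90 fragments at 4.33 times the background. The 2 peaks overlapped by 1331 bp, their summits were 45 bp apart, and both lay inside the gene, their near edges 1450 and 1505 bp from the start. They are the peaks with the 6 YY1 cores printed above, with lengths far above the median of 542 and 404 bp for all peaks of the 2 lines. By pileup they ranked similarly, at the 76.3 percentile (Pax6-HIGH) and the 78.3 percentile (Pax6-ON). By fold enrichment the Pax6-HIGH peak fell to the 32.1 percentile and the Pax6-ON peak to the 59.5 percentile, since the local background there was 28.2 and 20 fragments, above the genome-wide 11.8 and 14.2. Pax6-OFF cells had no peak within 359878 bp of a Peg3 start, and 757602 bp around the 5′ end of the gene were free of peaks.
The highest-ranking peak around any of the 10 genes (chr7:6648899-6649501, Pax6-HIGH only) also lay in the Peg3 window, 7102 bp past the 3′ end of Peg3. It had a pileup of 109, a fold enrichment of 6.26 and an 84.4 percentile, and stood at a start of Zim1, an imprinted zinc-finger gene expressed from the maternal copy.

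Snrpn (chr7:67127388-67285105, minus strand), a paternally expressed splicing protein gene at the control region of the Prader-Willi cluster, had a start-site peak in Pax6-HIGH cells only. The peak (chr7:67148790-67150009) was 1220 bp long and had a pileup of 54, a fold enrichment of 4.12 and a 50.2 percentile, close to the median peak of the line. It began 33 bp inside the annotated start at chr7:67150042, with its summit 830 bp downstream in an intron, in the stretch with the hexamers printed above. The nearest peaks in Pax6-ON and Pax6-OFF cells were 102655 and 102653 bp from a start of the gene. The other annotated start, at the 5′ end of the gene, had no peak within 1 kb in any line. RefSeq lists further Snrpn starts upstream, to chr7:67595063, beyond the model used.

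Plagl1 (chr10:12810497-12851500, plus strand), a paternally expressed zinc-finger regulator of growth and the cell cycle, had the strongest start-site peak of the 10 genes. It was called in Pax6-HIGH cells only (chr10:12810271-12811025), spanned 8 CpG-rich starts, and had a pileup of 103, a fold enrichment of 6.0 and an 82.3 percentile. The 301 bases around its summit had a GC content of 69.4% and a ratio of observed to expected CpG of 0.663, against medians of 53.8% and 0.36 for the 301-base summit windows of the line. A second Pax6-HIGH peak (chr10:12860059-12860495) lay 8559 bp past the 3′ end of the gene with a pileup of 51 and a 46.2 percentile. In Pax6-ON and Pax6-OFF cells the nearest peak to any annotated start was 67921 and 67889 bp away, on the far side of the gene at the start of Ltv1. These distances run from an internal start at chr10:12844665. Upstream of the first annotated start, the nearest peaks were 211733 and 81997 bp away. Common peaks on chromosome 10 had 1.12, 0.985 and 1.23 times the median pileup of other autosomes in Pax6-HIGH, Pax6-ON and Pax6-OFF cells.

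Peg10 (chr6:4697306-4710514, plus strand), a paternally expressed gene derived from a retrotransposon, and Sgce, the sarcoglycan gene that is read the other way from the same control region, shared a Pax6-HIGH peak. This peak (chr6:4696602-4697171) ended 135 bp before the Peg10 start, and its summit fell in the untranslated part of Sgce. It had a pileup of 62 but a fold enrichment of 1.93, because the local background was 31.6 fragments. Its rank therefore depended on the measure, from the 58.8 percentile by pileup to the 0.464 percentile by fold enrichment. A Pax6-HIGH peak in the Peg10 intron (chr6:4699078-4699455, pileup 85, fold enrichment 2.83) lay 1951 bp downstream of the start, and another lay 1339 bp past the gene (chr6:4711853-4712139, pileup 54, fold enrichment 2.29). The only Pax6-OFF peak (chr6:4690460-4690709) was 6597 bp upstream in a Sgce intron, with a pileup of 41 and a 30.7 percentile, and it overlapped none of the Pax6-HIGH peaks. In Pax6-ON cells the nearest peak was 176526 bp away.
Chromosome 6 stood apart in Pax6-HIGH cells. At 299 peaks common to the 3 lines its pileup was 1.89 times that of other autosomes, against 1.03 and 0.945 in the other lines, and it held 27.9 peaks per Mb, against 4.35 and 4.51. Pax6-HIGH cells had more peaks in all, and their chromosomes 2, 7, 11, 12 and 17 held 8.86 to 10.9 per Mb. The part of this chromosome 6 difference in the Peg10 peaks was not tested. All 3 had a local background of 23 to 31.6 fragments, above the genome-wide 11.8, and none remained among the 9821 peaks of smallest q-value.

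Nnat (chr2:157385814-157388258, plus strand), a paternally expressed gene of neural and endocrine cells that lies within Blcap, had 9 CpG-rich starts among 10 and no start-site peak in any line. The site next to it lay downstream, within 1 kb of an annotated start of Blcap and with its summits in a Blcap intron. Peaks were called there in Pax6-HIGH (chr2:157391996-157392692) and Pax6-OFF cells (chr2:157391876-157393110). Their pileups were 59 and 54 and their percentiles 55.8 and 56.6, so they ranked alike by pileup. By fold enrichment (4.69 and 3.19) they ranked at the 66.8 and 29.6 percentiles, and by q-value at 60.9 and 41.3. The summits were 211 bp apart and the Pax6-OFF peak was longer, 1235 against 697 bp. This was the only site around the 10 genes with a match to the CTCF core GGNGGCAG, which overlapped a ZFP57 hexamer and lay 325 and 536 bp from the summits. The CTCF core was present in 13.5%, 12.5% and 14.1% of summit windows in Pax6-HIGH, Pax6-ON and Pax6-OFF cells. Pax6-OFF cells had a second, intergenic peak 7032 bp upstream of Nnat (chr2:157378142-157378782, pileup 54). Pax6-ON cells had no peak within 280838 bp of an Nnat start.

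**Figure D4:**
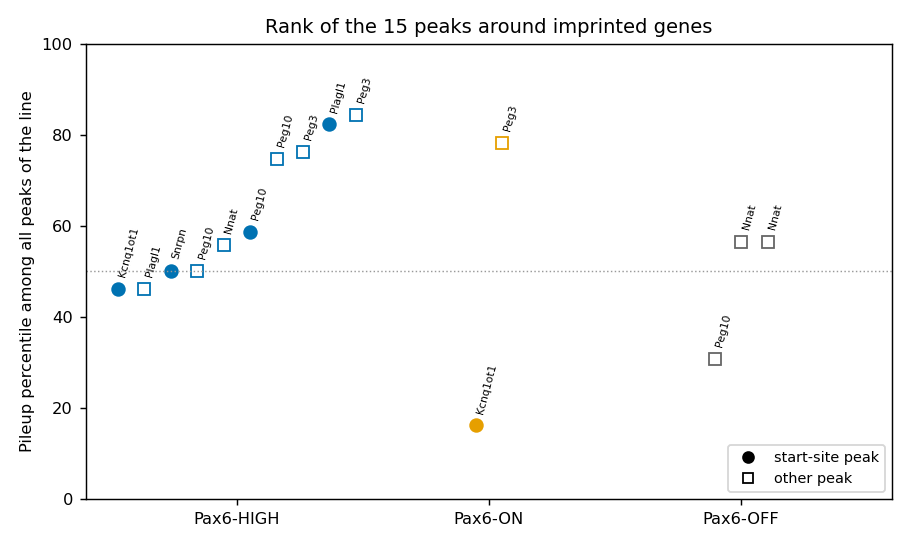
Pileup percentile within the line of the 15 peaks around the 10 genes, with filled circles for start-site peaks and open squares for other peaks. Pax6-HIGH peaks lay between 46.2 and 84.4, and the 5 peaks of the other lines between 16.2 and 78.3.

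H19 (chr7:149761434-149764048), a maternally expressed noncoding RNA, and Igf2 (chr7:149836673-149852721), the paternally expressed fetal growth factor, both on the minus strand, share enhancers and the CTCF-bound control region between them, and had no peak at any of their 5 and 9 starts. In Pax6-HIGH cells the peak-free stretch around both genes was 363645 bp, from the start of Mrpl23 to that of Th. In Pax6-ON cells it was 597831 bp, from Lsp1 to Tssc4, and in Pax6-OFF cells 631516 bp, from Syt8 to Tssc4. It thus took in the whole interval with the control region and Ins2, one of the insulin genes, in all 3 lines. Ins2 itself had no peak within 145715 bp of its start in the insulinoma line. Of protein-coding genes, 13.3%, 27.8% and 10.9% were farther from a peak than Igf2 was in Pax6-HIGH, Pax6-ON and Pax6-OFF cells, so such distances were not rare.
Meg3 (chr12:110779211-110809936, plus strand), the maternally expressed noncoding RNA of the Dlk1-Dio3 cluster, had its nearest peaks 120648, 122837 and 200515 bp from a start in Pax6-HIGH, Pax6-ON and Pax6-OFF cells. Peak-free stretches around its 5′ end measured 592302, 331570 and 789253 bp. Mest (chr6:30673547-30698457, plus strand), a paternally expressed gene of the hydrolase family, had 4 CpG-rich starts among 11 and no peak nearer than 29530 bp for Pax6-HIGH, 154423 bp for Pax6-ON and 29619 bp for Pax6-OFF. The nearest peak in Pax6-HIGH and Pax6-OFF cells was the same place, the start of Tsga14. Mest lies on chromosome 6, so the higher pileup of that chromosome in Pax6-HIGH cells was not accompanied by a peak at its starts. A site without a peak is one that did not pass the call, which needed at least 25, 30 and 25 fragments in the 3 lines, so weaker accessibility there was not detectable.

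**Figure D5:**
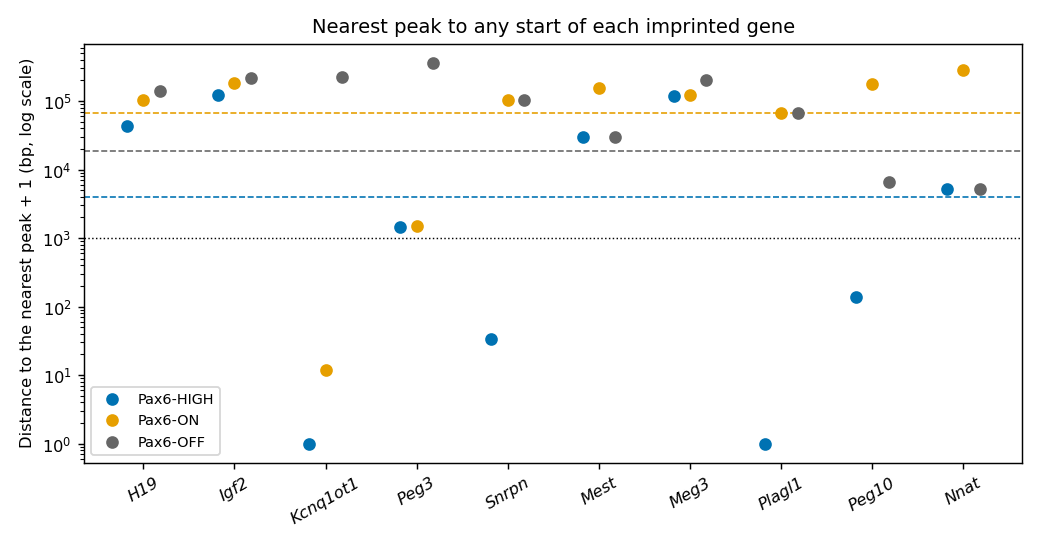
Distance from any start of each imprinted gene to the nearest peak edge, plus 1 bp, on a log scale, by line. Dashed lines are the medians over protein-coding genes, 3942.5 bp (Pax6-HIGH), 67140 bp (Pax6-ON) and 18703.5 bp (Pax6-OFF), and the dotted line marks the 1 kb window. Of the 10 genes, 4 lay beyond 10 kb in Pax6-HIGH cells, 8 in Pax6-ON cells and 8 in Pax6-OFF cells. The protein-coding median also lay beyond 10 kb in Pax6-ON and Pax6-OFF cells.

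The median distance from the 10 genes to a peak was 3350.5 bp in Pax6-HIGH cells, close to the 3942.5 bp of protein-coding genes. For Pax6-ON the 2 medians were 114053 and 67140 bp, and for Pax6-OFF 120797 and 18703.5 bp. The distance from the protein-coding median was thus widest in Pax6-OFF cells, and no error could be given for it.

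A list of 47 further imprinted genes, 46 of which had a gene model, was set beside the 10. A start-site peak was found at 25 of them (54.3%) in the Pax6-HIGH line, at 8 (17.4%) in the Pax6-ON line and at 10 (21.7%) in the Pax6-OFF line, against 46.4%, 21.4% and 36.1% of protein-coding genes. Among the 31 with a CpG-rich start the counts were 19 (61.3%), 6 (19.4%) and 7 (22.6%), against 75.5%, 35.3% and 61% of such protein-coding genes. The Pax6-HIGH share thus lay above the background over all genes and below it over genes with CpG-rich starts. On chromosome 6, 6 of 7 of the listed genes had a start-site peak in Pax6-HIGH cells. On the other chromosomes 19 of 39 had one (48.7%), near the 46.2% of protein-coding genes there. Of the 46, 16 (34.8%) had it in Pax6-HIGH cells only, against 11.1% of protein-coding genes. They included Ndn, Magel2 and Mkrn3 of the Prader-Willi cluster, Zim1 beside Peg3, Cd81 and Osbpl5 beyond Kcnq1ot1, and Zrsr1, Mcts2, H13, Zdbf2 and Sfmbt2. The other 5 (Sgce, Ppp1r9a, Asb4, Calcr and Nap1l5) lie on chromosome 6. Without that chromosome, 11 of 39 (28.2%) had a peak in Pax6-HIGH cells only, against 10.8% of protein-coding genes. With 9821 peaks per line the count was 5 of 46 (10.9%), against 4.4% of protein-coding genes. Start-site peaks were then found at 10, 8 and 8 of the 46 (21.7%, 17.4% and 17.4%), against 28%, 21.4% and 30.7% of protein-coding genes. On that footing the Pax6-HIGH share lay below the background over all genes. The 2 genes Peg12 and Ddc, had a peak in Pax6-ON cells only (4.35%) and 0 had one in Pax6-OFF cells only, against 1.06% and 2.48% of protein-coding genes.

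The labels of the lines were set against a few defining genes. Pax6 had a start-site peak in Pax6-HIGH and Pax6-ON cells and none within 211704 bp of its starts in Pax6-OFF cells. Of 6 beta cell genes, Pax6-HIGH cells had a start-site peak at Nkx6-1 and Neurod1 and not at Ins1, Ins2, Pdx1 or Iapp, while Pax6-ON cells had one at Nkx6-1 and Pax6-OFF cells at 0. Of 5 lens genes, Pax6-ON cells had one at Prox1 and Maf and none at the crystallin genes Cryaa and Cryab or at Foxe3. Pax6-HIGH cells also had one at Prox1 and Maf, and Pax6-OFF cells at Maf and Cryab, so the lens genes, at 2 of 5 in every line, did not set the lens line apart. Of 5 kidney genes, Pax6-OFF cells had one at Pax2 and Cdh16 and the other lines at 0.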

How the data were processed

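ATAC-seq libraries of 3 mouse cell lines, 2 per line, were analysed from 1 peak table per line. The submitters' processing notes name Trim Galore 0.4.1, Bowtie2 2.2.6, SAMtools 1.6, bedtools, MACS2 2.1.1 and mm9. The authors pooled both libraries of a line in 1 MACS2 call at a q-value cut of 0.05, without a control library, from whole paired-end fragments with no shift for the Tn5 cut and with duplicate reads of the input kept, which can widen peaks and raise pileups. The pileup column, as deposited, is an unscaled signal (fragments covering the summit) and was ranked only within its line as a percentile. Fold enrichment, as deposited, divides the pileup by a local background in a ratio, each with a pseudocount of 1. The authors' p-values and q-values are deposited as −log10 values, and the q-values were used only to rank and cut peaks. The summit-only peak lists that repeat these calls were not used.

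Gene models came from GENCODE M1 on NCBIM37 (the assembly of mm9). All 69 RefSeq promoter sequences found for 45 of the listed genes, 8 of the 10 among them, matched NCBIM37 once. A gene's window was its body and 10 kb on either side, and an overlap of 1 bp counted. Peaks of different lines that overlapped were 1 site. Every gene of the 10 is named with all its peaks. The 10 genes, the lists and the motifs were chosen with earlier results of these data known. Python 3.11.15 with pandas 2.3.3 was used, and the functions were tested on simulated peaks. With 1 call per line no test was made. The alternatives were a stricter q-value, equal peak numbers, other windows and flanks, the gene 5′ end only, a larger overlap, other rankings, and RefSeq starts.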

Additional observations from a re-analysis of the deposited data

How the results depend on the processing

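No paired analysis was possible because both replicates of a line were pooled in 1 call, and for the same reason no replicate could be left out. When every line was cut to its 9821 most significant peaks, the genes with a start-site peak in Pax6-HIGH cells went from 4 to 1, the peaks around the 10 genes in Pax6-HIGH cells from 10 to 2, and the sites called in 2 lines from 3 to 0. Fewer peaks entered that comparison by construction. A start window of 2500 bp gave 5 genes in Pax6-HIGH and 2 in Pax6-ON cells, since the Peg3 intron peak then counted in both lines. With only the 5′ end of each gene as its start, Pax6-HIGH cells had 3 genes. When peaks had to overlap by 50% of both lengths, 2 sites were called in 2 lines. Without flanks, the peaks numbered 5 (Pax6-HIGH), 1 (Pax6-ON) and 0 (Pax6-OFF), and flanks of 5 kb left 1 in Pax6-OFF cells. The median rank of the 4 start-site peaks in Pax6-HIGH cells was the 54.5 percentile by pileup, 55.9 by fold enrichment, 52 by q-value and 57 by pileup within the chromosome. A q-value below 0.001 kept all 15 peaks. RefSeq starts, used where listed, gave 4, 1 and 0 genes again, but Peg10 and H19 have none and kept their GENCODE starts, and Kcnq1ot1 rested on RefSeq throughout. This alternative, and equal peak numbers for the other gene sets, were chosen after seeing the data. Lines differed in depth by less than in number of peaks, and no site below a pileup of 25 was called in any line.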

Other observations

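The clusters around the 10 genes differed in how many peaks they held. The H19-Igf2 interval (144 kb with flanks) held 0 peaks in all 3 lines, where the density of peaks on chromosome 7 would place 1.35 (Pax6-HIGH), 0.415 (Pax6-ON) and 0.764 (Pax6-OFF). The Kcnq1 cluster (810 kb) held 15, 5 and 4 peaks in Pax6-HIGH, Pax6-ON and Pax6-OFF cells, against 7.6, 2.34 and 4.3 at the density of the chromosome. The peaks at the starts of Tssc4, Nap1l4 and Cars were called in all 3 lines, and those of Cd81 and Osbpl5 in Pax6-HIGH cells only. Kcnq1, Cdkn1c, Phlda2, Slc22a18 and Ascl2 had no start-site peak in any line. Imprinted genes of the cluster, Tssc4 among them, thus stood on both sides. The Peg3 cluster (308 kb) held 7, 1 and 0 peaks, against 2.89, 0.889 and 1.64 at that density, and the single Pax6-ON peak was the Peg3 intron peak. The Snrpn cluster, also on chromosome 7, held 51, 27 and 42, against 29.5, 9.07 and 16.7. These peaks were spread unevenly. Peak-free stretches around the 5′ end of Snrpn measured 158008 bp (Pax6-HIGH), 1437652 bp (Pax6-ON) and 3121808 bp (Pax6-OFF). The Pax6-OFF stretch ran from chr7:67047389 to chr7:70169198, past the end of the cluster. All 42 Pax6-OFF peaks thus lay on the Ube3a side of Snrpn, and none at Snrpn, Ndn, Magel2, Mkrn3 or Peg12. On chromosome 6 the Peg10 cluster held 74, 3 and 6, against 49.2, 7.68 and 7.97. The Mest cluster there held 3, 1 and 1, against 7.12, 1.11 and 1.15. The Nnat interval on chromosome 2 held 1, 0 and 2, against 0.352, 0.141 and 0.175.

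The Dlk1-Dio3 cluster (848 kb) held 1 peak for Pax6-HIGH, 2 for Pax6-ON and 8 for Pax6-OFF, where the density of chromosome 12 would place 7.51, 2.54 and 7.39. None of them lay within 1 kb of an annotated start. The strongest (chr12:110987945-110988434 in Pax6-ON) had a pileup of 195, the 97.3 percentile of the line, and a Pax6-OFF peak at the same place had 98, the 89 percentile, while Pax6-HIGH cells had none there. It lay 178009 bp past the 3′ end of Meg3. These clusters have no replicate, and no difference between lines was tested.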
